A study of Mus musculus with 10 samples.

Results

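The 10 genes described here encode enzymes of sphingolipid metabolism, with Ugcg, the gene of glucosylceramide synthase, at the head. They were taken by symbol from a deposited table of 21956 genes of mouse muscle, and all 10 were found there. The other 9 are B4galt6, St3gal5, Sgms1, Sptlc1, Sptlc2, Cers2, Cers5, Asah1 and Smpd1. The genes were selected on earlier results from these same libraries, HLI against Sham values among them, so their differences between groups are given as a description, and no test of those differences is used as support.

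The samples were 5 libraries labelled HLI and 5 labelled Sham, all from gastrocnemius muscle (a calf muscle) of mice with the genotype WT and all from poly(A) RNA. HLI is read here as hindlimb ischaemia, a surgical block of blood flow to the leg. The labels spell out neither HLI nor the operation behind Sham, and they give no time after it, no age and no sex. Whether each library is a separate animal is not stated, and a spread or p-value therefore describes these libraries and could be technical. The study as titled deals with FGF13 in endothelial cells, blood vessel growth and breakdown of HIF-1α.

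Sphingolipids are membrane lipids built on a long-chain base. Serine palmitoyltransferase starts their synthesis, ceramide synthases join the base to a fatty acid, and the resulting ceramide is the branch point of the pathway. Ceramide may receive glucose on the way to gangliosides, may receive phosphocholine to become sphingomyelin, or may be split again in the lysosome. In muscle, ceramide is known for interfering with insulin signalling, and GM3 is the first ganglioside made from lactosylceramide in mouse tissues.

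Promoter sequence was available for 8 of the 10 genes, in 12 windows of 300 bases that run from 250 bases before to 50 bases after a start site. Windows of 3 genes are shown, because Ugcg had the largest positive difference between groups, St3gal5 had the largest negative one, and Cers2 held the only match to the hypoxia motif. The sequences are RefSeq's on GRCm38.p6, which is not the build named for the deposited values. All 3 windows lie on the plus strand and read 5′ to 3′. They cover chr4:59189300-59189599 for Ugcg, chr6:72097358-72097657 for St3gal5 and chr3:95314940-95315239 for Cers2. Capitals mark the GC box GGGCGG on either strand in Ugcg and St3gal5, and the motif ACGTG on either strand in Cers2.
Ugcg: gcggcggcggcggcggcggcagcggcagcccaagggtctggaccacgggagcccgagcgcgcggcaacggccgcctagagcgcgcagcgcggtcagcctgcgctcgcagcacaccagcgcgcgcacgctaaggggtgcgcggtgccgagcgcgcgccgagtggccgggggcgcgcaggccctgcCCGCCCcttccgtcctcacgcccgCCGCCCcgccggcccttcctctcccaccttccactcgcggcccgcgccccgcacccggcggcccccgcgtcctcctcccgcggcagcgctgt
St3gal5: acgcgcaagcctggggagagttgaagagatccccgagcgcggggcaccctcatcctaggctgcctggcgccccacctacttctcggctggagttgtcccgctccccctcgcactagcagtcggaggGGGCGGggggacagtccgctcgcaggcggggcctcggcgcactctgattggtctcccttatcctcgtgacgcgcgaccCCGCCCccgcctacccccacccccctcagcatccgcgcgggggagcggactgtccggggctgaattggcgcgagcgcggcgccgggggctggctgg
Cers2: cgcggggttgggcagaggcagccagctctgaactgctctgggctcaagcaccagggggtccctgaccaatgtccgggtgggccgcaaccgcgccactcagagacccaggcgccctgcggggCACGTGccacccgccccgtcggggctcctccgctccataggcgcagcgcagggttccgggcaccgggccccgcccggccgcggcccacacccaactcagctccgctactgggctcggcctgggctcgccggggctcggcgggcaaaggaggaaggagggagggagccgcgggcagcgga

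ACGTG, the core of the hypoxia response element bound by HIF factors, occurred in 1 of the 12 windows of these genes, against 19.6% of 32851 windows of the same length over all genes. The match in Cers2 is the palindrome CACGTG, the E-box, which holds ACGTG on both strands and lies before the start site. The GC box occurred in 9 of the 12 windows, which belong to 8 genes, against 35.7% of all windows. The windows of Ugcg and St3gal5 each held 2 GC boxes and no ACGTG. These are matches of letters, and a window without a match says nothing about binding elsewhere.

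CPM is the estimated count of a gene scaled to 1000000 counts of its library, with library sizes scaled by TMM (a trimmed mean of log ratios between libraries), and it serves to compare one gene between libraries. TPM, the authors' value per gene length, serves to compare genes with each other. The estimated counts of the 10 genes ran from 112 to 2461 per library, in libraries of 16556385 to 22136299 counts, and all 10 passed the filter on low counts that kept 13404 genes.

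Several libraries stood apart before any sphingolipid gene was considered. The summed CPM of the developmental muscle genes Myh3, Myh8 and Myl4, made in newly formed fibres, was 13.8 in HLI replicate 1, with 190 to 1308 for HLI replicates 2 to 5, against 271 in Sham replicate 1 and between 9.98 and 13.8 in the other Sham libraries. HLI replicate 1 and Sham replicate 1 thus each went against their group, and the log2 fold changes of the 10 enzymes without both are given with their main values. The 13 macrophage markers, all of them detected in every library, summed to between 890 and 3735 CPM in HLI and between 701 and 1754 CPM in Sham. The 13 fast fibre genes, the defining transcripts of this muscle, summed to between 54490 and 149626 CPM in HLI and between 121289 and 168216 CPM in Sham. HLI replicate 3 was lowest in fast fibre genes, while HLI replicate 4 lay within the Sham range for both lists. In bulk tissue, fewer cells of a type and less RNA per cell cannot be told apart.

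Over all 10 genes, 7 had a higher and 3 a lower value in HLI. Ugcg, B4galt6, Asah1 and Sptlc2 had the largest positive differences, and St3gal5 and Smpd1 the largest negative ones. None of the 10 passed the edgeR quasi-likelihood test at a Benjamini-Hochberg adjusted p under 0.05, as was so for 0 of the 13404 genes tested (0%). At an unadjusted p under 0.05 there were 5 of the 10, against 16.9% of all genes, with 4 higher in HLI (10.7% of all genes) and 1 lower (6.15% of all genes). Complete separation with HLI lower was found in 0 of the 10, against 0.873% of all genes. DESeq2 called 1 of the 10, Ugcg, against 0.313% of the genes to which it gave an adjusted p. The median log2 fold change was 0.19 over the 10 genes and 0.03 over all genes tested. Because these genes were picked with this comparison known, nothing is read from these shares.

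**Figure D1:**
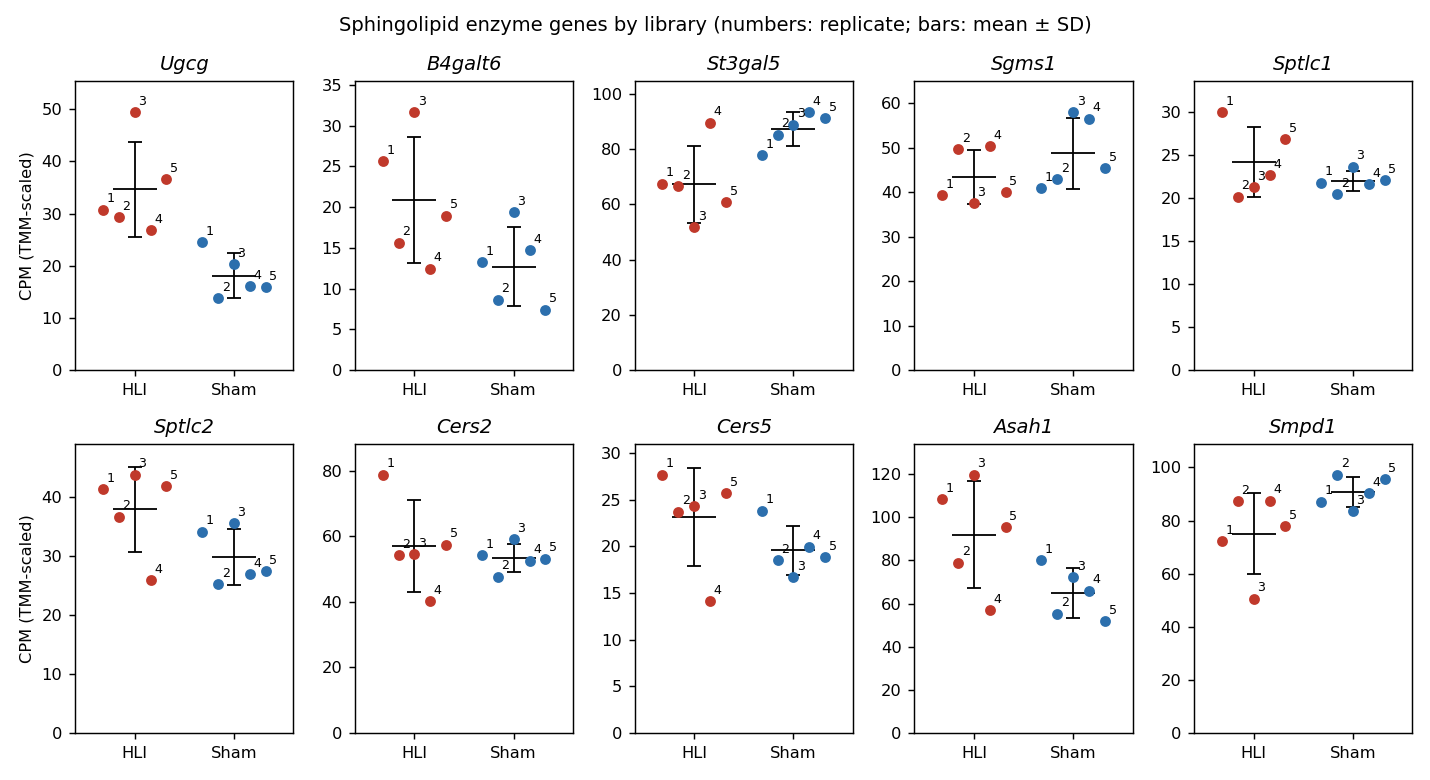
Level of each of the 10 genes in CPM (y axis, from 0) in every HLI and Sham library, with the replicate number beside each point and the mean ± SD (n = 5) as bars. For Ugcg the HLI libraries lie between 26.9 and 49.4 CPM and the Sham libraries between 13.8 and 24.5 CPM, whereas the groups overlap for the other 9 genes.

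Ugcg (ENSMUSG00000028381) encodes glucosylceramide synthase, which attaches glucose to ceramide in the Golgi and so commits it to the glycosphingolipids. It stood at 30.7, 29.4, 49.4, 26.9 and 36.6 CPM in HLI replicates 1 to 5, against 24.5, 13.8, 20.4, 16.1 and 15.8 CPM in Sham replicates 1 to 5. The groups did not overlap, HLI being higher, with HLI replicate 4 and Sham replicate 1 nearest to each other. The same complete separation, with HLI higher, was found in 0.776% of all genes tested. The mean was 34.6 ± 9.03 CPM in HLI and 18.1 ± 4.29 CPM in Sham (SD, n = 5), and HLI over Sham gave a log2 fold change of 0.93 (SE 0.20). Without HLI replicate 1 and Sham replicate 1 it was 1.11 (SE 0.20), and without HLI replicate 3 it was 0.77. On the authors' TPM, without further scaling, the separation was not complete, with 11.1 TPM in HLI replicate 4 and 11.2 TPM in Sham replicate 1.

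The macrophage and fast fibre sums moved partly with Ugcg. Among Sham libraries, Ugcg and the macrophage sum were both highest in Sham replicate 1, at 24.5 and 1754 CPM. Among HLI libraries, HLI replicate 3 had the highest Ugcg with a macrophage sum of 3210 CPM, whereas HLI replicate 1 had the highest macrophage sum, 3735 CPM, with a Ugcg level of 30.7 CPM. In HLI replicate 4 the macrophage sum was 890 CPM and the fast fibre sum 149626 CPM, both inside the Sham ranges, and Ugcg at 26.9 CPM was above every Sham library. HLI replicate 2 also had a macrophage sum inside the Sham range, at 1626 CPM, with 29.4 CPM of Ugcg. Its fast fibre sum, 117726 CPM, lay below every Sham library. HLI replicate 4 was not inside the Sham range for every marker list. Its fibro-adipogenic progenitor markers (connective tissue cells) summed to 5786 CPM, against 8178 to 10992 CPM in Sham. Its developmental muscle genes summed to 289 CPM, above the 271 CPM of Sham replicate 1. In TPM, its Ugcg (11.1) was not above Sham replicate 1 (11.2). The part of tissue composition in the Ugcg difference was not tested.

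**Figure D2:**
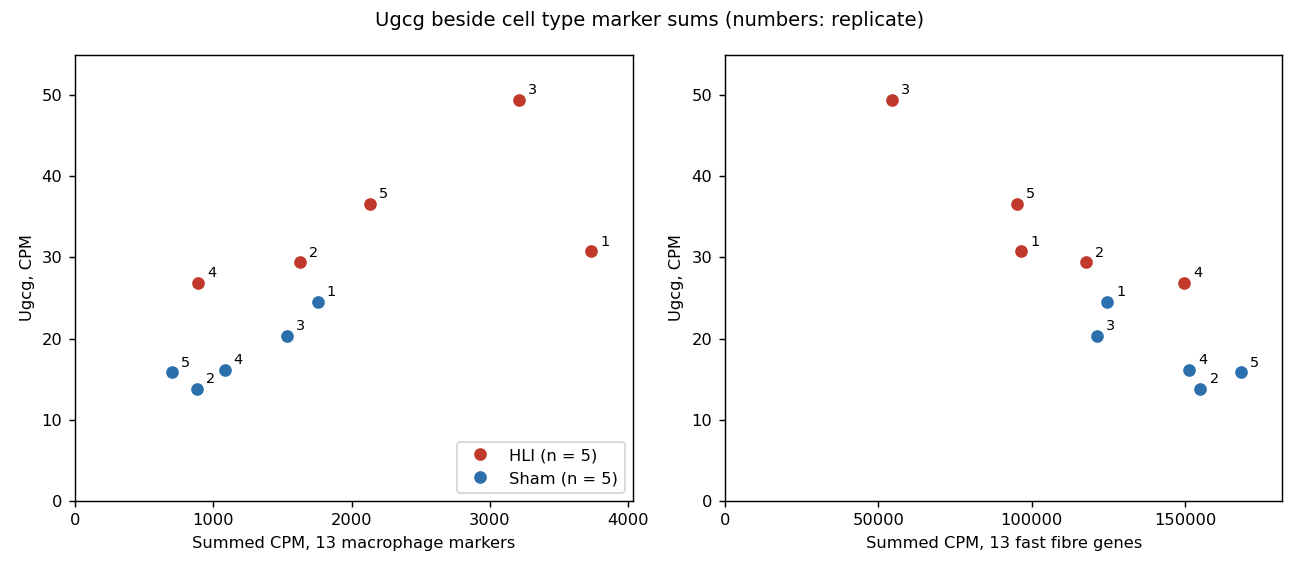
Ugcg in CPM (y axis) against the summed CPM of 13 macrophage markers (left) and of 13 fast fibre genes (right), 1 point per library with its replicate number. HLI replicate 4, at 890 CPM of macrophage markers and 149626 CPM of fast fibre genes, lies among the Sham libraries on both x axes and above them in Ugcg. In TPM its Ugcg (11.1) is not above that of Sham replicate 1 (11.2), and the part of tissue composition was not tested.

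After Ugcg, B4galt6 had a positive and St3gal5 a negative difference. B4galt6 (ENSMUSG00000056124) encodes a galactosyltransferase that makes lactosylceramide from glucosylceramide. It stood at 25.7, 15.6, 31.7, 12.5 and 19.0 CPM in HLI replicates 1 to 5, against 13.3, 8.67, 19.4, 14.8 and 7.42 CPM in Sham replicates 1 to 5. HLI replicates 1 and 3 lay above all Sham libraries, and the other HLI libraries lay inside the Sham range. The log2 fold change was 0.72 (SE 0.30), and 0.65 without HLI replicate 1 and Sham replicate 1. Its range when each library in turn was left out was 0.52 to 0.92.

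St3gal5 (ENSMUSG00000056091) encodes GM3 synthase, the sialyltransferase that turns lactosylceramide into the ganglioside GM3. It stood at 67.5, 66.7, 51.6, 89.5 and 60.8 CPM in HLI replicates 1 to 5, against 77.6, 85.2, 88.8, 93.4 and 91.0 CPM in Sham replicates 1 to 5. Of the HLI libraries, 4 lay below every Sham library and HLI replicate 4 lay among them. The log2 fold change was -0.38 (SE 0.14), -0.42 without HLI replicate 1 and Sham replicate 1, and -0.51 without HLI replicate 4. The ratio of St3gal5 to Ugcg in TPM, which does not depend on the scaling of libraries, was 1.85 to 5.93 in HLI and 5.60 to 11.1 in Sham, and the groups overlapped through HLI replicate 4 and Sham replicate 1.

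The sphingomyelin branch had small differences. Sgms1 (ENSMUSG00000040451) encodes the Golgi sphingomyelin synthase, which competes with glucosylceramide synthase for ceramide. It stood at 39.4, 49.8, 37.6, 50.4 and 40.0 CPM in HLI replicates 1 to 5, against 41.0, 43.0, 58.1, 56.6 and 45.5 CPM in Sham replicates 1 to 5. The groups overlapped and the log2 fold change was -0.17 (SE 0.14), and -0.19 without HLI replicate 1 and Sham replicate 1. The ratio of Ugcg to Sgms1 in TPM was 0.634, 0.474, 1.11, 0.423 and 0.810 in HLI replicates 1 to 5, against 0.492, 0.230, 0.267, 0.199 and 0.292 in Sham replicates 1 to 5. Ugcg exceeded Sgms1 per length in HLI replicate 3, the library lowest in fast fibre genes, and in no other library. Sham replicate 1 lay above HLI replicates 2 and 4 in this ratio, and the other 4 Sham libraries lay below all HLI libraries.

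Smpd1 (ENSMUSG00000037049) encodes acid sphingomyelinase, the lysosomal enzyme that releases ceramide from sphingomyelin. It stood at 72.2, 87.3, 50.6, 87.5 and 77.9 CPM in HLI replicates 1 to 5, against 87.1, 97.3, 83.6, 90.3 and 95.6 CPM in Sham replicates 1 to 5. HLI replicate 3 was lowest and 3 of the HLI libraries lay below all Sham libraries. The log2 fold change was -0.27 (SE 0.14), likewise -0.27 without HLI replicate 1 and Sham replicate 1, and -0.16 without HLI replicate 3.

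Asah1 (ENSMUSG00000031591) encodes acid ceramidase, which splits ceramide in the lysosome into sphingosine and a fatty acid. It stood at 108, 79.0, 120, 57.0 and 95.4 CPM in HLI replicates 1 to 5, against 80.0, 55.3, 72.1, 66.0 and 51.9 CPM in Sham replicates 1 to 5. HLI replicates 1, 3 and 5 lay above every Sham library, and these were also the HLI libraries with macrophage sums above the Sham range. The log2 fold change was 0.50 (SE 0.20), 0.52 without HLI replicate 1 and Sham replicate 1, and 0.39 without HLI replicate 3. The part of the macrophage transcripts in this difference was not tested. The 2 lysosomal enzymes thus had values on opposite sides of 0, and the ratio of Asah1 to Smpd1 in TPM was 0.566 to 2.06 in HLI and 0.472 to 0.856 in Sham.

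Ceramide synthesis starts with serine palmitoyltransferase, of which 2 subunits are described here. Sptlc2 (ENSMUSG00000021036), which encodes the catalytic subunit, stood at 41.3, 36.7, 43.8, 25.9 and 42.0 CPM in HLI replicates 1 to 5, against 34.2, 25.2, 35.7, 26.9 and 27.4 CPM in Sham replicates 1 to 5. All HLI libraries but replicate 4 lay above every Sham library, and the log2 fold change was 0.34 (SE 0.16), and 0.37 without HLI replicate 1 and Sham replicate 1. Sptlc1 (ENSMUSG00000021468), which encodes the partner subunit required for activity, stood at 30.0, 20.2, 21.3, 22.7 and 26.9 CPM in HLI replicates 1 to 5, against 21.8, 20.4, 23.7, 21.7 and 22.1 CPM in Sham replicates 1 to 5. Its log2 fold change was 0.14 (SE 0.12), and 0.05 both without HLI replicate 1 and without HLI replicate 1 and Sham replicate 1. It averaged 24.2 ± 4.12 CPM in HLI and 22.0 ± 1.16 CPM in Sham (SD, n = 5), so the HLI libraries were spread more widely than the Sham libraries. The ratio of Sptlc1 to Sptlc2 in TPM was 1.25 to 2.25 in HLI and 1.64 to 2.09 in Sham, so the groups overlapped in it.

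The ceramide synthases Cers2 and Cers5 choose the fatty acid of ceramide, with Cers2 known for very-long-chain and Cers5 for palmitoyl chains. Cers2 (ENSMUSG00000015714) stood at 78.9, 54.2, 54.6, 40.2 and 57.5 CPM in HLI replicates 1 to 5, against 54.3, 47.7, 59.3, 52.6 and 53.2 CPM in Sham replicates 1 to 5. HLI replicate 1 lay above and HLI replicate 4 below all Sham libraries. The log2 fold change was 0.10 (SE 0.15), -0.05 without HLI replicate 1 and -0.04 without HLI replicate 1 and Sham replicate 1, so its sign rested on HLI replicate 1. Cers5 (ENSMUSG00000023021) stood at 27.7, 23.7, 24.3, 14.1 and 25.7 CPM in HLI replicates 1 to 5, against 23.8, 18.5, 16.7, 20.0 and 18.8 CPM in Sham replicates 1 to 5. HLI replicate 4 lay below all Sham libraries and HLI replicates 1, 3 and 5 above them, and the log2 fold change was 0.24 (SE 0.17), and 0.25 without HLI replicate 1 and Sham replicate 1.

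Per gene length, the order of the 10 genes was led by different enzymes in the 2 groups. In HLI, Asah1 averaged 70.1 ± 25.5 TPM, followed by Smpd1 at 59.7 ± 6.52, St3gal5 at 57.2 ± 5.65 and Cers2 at 51.2 ± 15.1 TPM (SD, n = 5). In Sham, St3gal5 at 66.8 ± 4.03 and Smpd1 at 63.6 ± 4.05 TPM came before Cers2 at 41.3 ± 5.14 and Asah1 at 41.3 ± 10.6 TPM (SD, n = 5). Sgms1, Cers5 and Sptlc1 followed in both groups. Ugcg was eighth in both groups, with 17.3 ± 6.93 TPM in HLI and 7.74 ± 2.33 TPM in Sham (SD, n = 5). Sptlc2 and then B4galt6 had the lowest means, B4galt6 with 7.29 ± 3.63 TPM in HLI and 3.74 ± 1.54 TPM in Sham (SD, n = 5). Neighbours in this order whose ranges did not overlap were Cers2 and Sgms1 in HLI. In Sham they were Smpd1 and Cers2, Sptlc1 and Ugcg, and Sptlc2 and B4galt6. All other neighbours had overlapping ranges within their group, Ugcg and Sptlc1 in HLI among them.

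**Figure D3:**
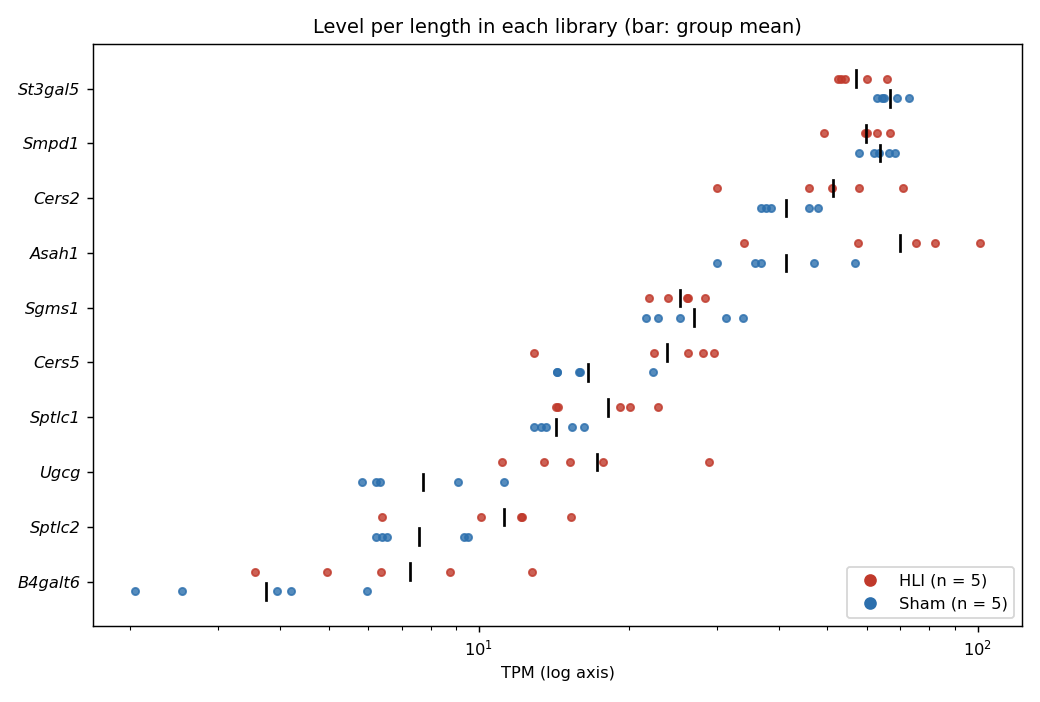
TPM of each of the 10 genes (log x axis) in every library, with HLI above Sham for each gene and the group mean as a bar. Ugcg averages 17.3 TPM in HLI and 7.74 TPM in Sham, and Asah1 averages 70.1 TPM in HLI and 41.3 TPM in Sham.

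The spread between libraries of the same group, which does not use the comparison of the groups, differed widely among the 10 genes. It was measured as the SD of log2 CPM around the group means, pooled over both groups. B4galt6 had the widest spread at 0.55, wider than that of 84.7% of all genes tested. Asah1 at 0.35 and Ugcg at 0.34 were wider than 62.9% and 60.4% of all genes. Sptlc1 had the narrowest spread at 0.18, wider than 20.4% of all genes, followed by Sgms1 and St3gal5 at 0.22 each. On log2(TPM + 1), without TMM scaling, St3gal5 at 0.11 and Smpd1 at 0.13 were the narrowest, so the order at the lower end depended on the scale.

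The deviations from the group means also showed which genes went together from library to library. Over the 10 libraries, the 45 pairs had 25 positive and 20 negative values of Pearson's r. Sptlc2 and Asah1 were the most alike pair (r = 0.91, Spearman's rho = 0.84), followed by B4galt6 and Asah1 (r = 0.88, rho = 0.84) and by Ugcg and Asah1 (r = 0.80, rho = 0.90). Ugcg also went with Sptlc2 (r = 0.79, rho = 0.90) and B4galt6 (r = 0.70, rho = 0.76). In the other direction, Asah1 and St3gal5 had an r of -0.81 (rho = -0.68), Ugcg and Smpd1 an r of -0.80 (rho = -0.88), Sptlc2 and St3gal5 an r of -0.79 (rho = -0.59), and Asah1 and Smpd1 an r of -0.77 (rho = -0.85). These values are a description of 10 libraries that share tissue composition and scaling, and no p is given for them because the genes were picked with earlier results known.

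Some pairs changed more than others without the 2 libraries farthest from the median in the first gene of the pair. Which gene came first followed only the order of listing. Without those libraries, the r of Sptlc2 and Asah1 was 0.79, that of B4galt6 and Asah1 0.82, that of Ugcg and Asah1 0.68, and that of Asah1 and Smpd1 -0.80. Without HLI replicates 3 and 4, the r of St3gal5 and Asah1 was -0.40. The r of St3gal5 and Smpd1 was 0.73 over all libraries and 0.04 without HLI replicates 3 and 4, and that of Cers2 and Cers5 was 0.73 and then -0.11 without HLI replicates 1 and 4. The last 2 relations therefore rested on those libraries. Other pairs also weakened, such as Sptlc2 and Cers5 (r = 0.72, then 0.16) and St3gal5 and Sptlc2 (r = -0.79, then -0.45). B4galt6 and Smpd1 held (r = -0.78, then -0.79).

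**Figure D4:**
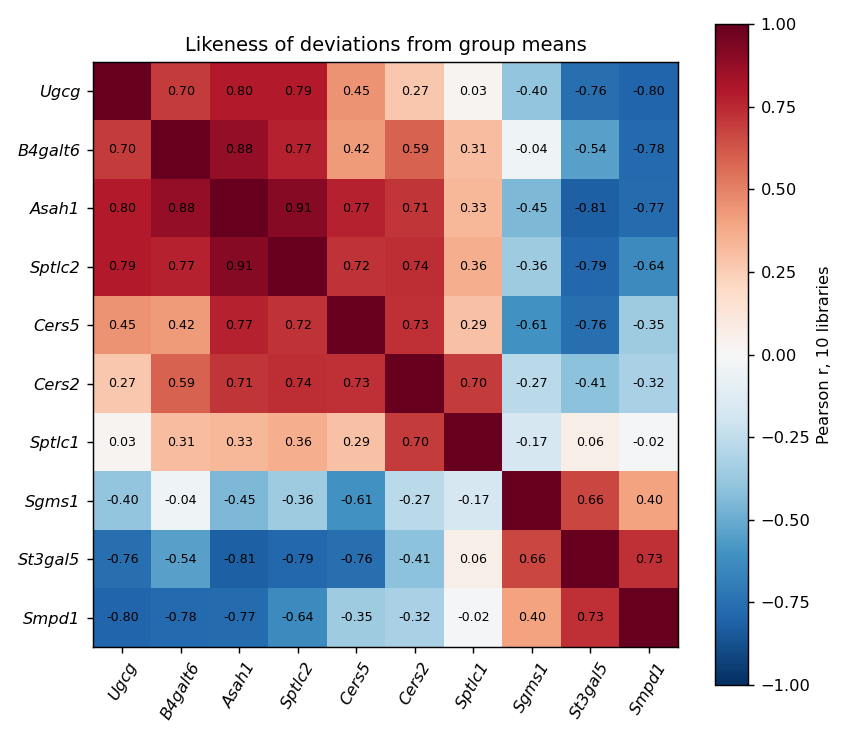
Pearson's r between the deviations of log2 CPM from the group means for each pair of the 10 genes, over 10 libraries, with red for positive and blue for negative values. Ugcg, B4galt6, Asah1 and Sptlc2 form a block with values of 0.70 to 0.91, and St3gal5 and Smpd1 have negative values against all of these.

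Among 10586 genes with a mean of at least 5 CPM, the 5 whose deviations were most like those of Ugcg were Ms4a7 (r = 0.97, rho = 0.98), Clec7a (r = 0.96, rho = 0.89), Ext1 (r = 0.95, rho = 0.90), Dusp6 (r = 0.95, rho = 0.92) and Cttnbp2nl (r = 0.95, rho = 0.89), over 10 libraries. Ms4a7, a membrane protein gene of macrophages, averaged 33.0 ± 27.9 CPM in HLI and 8.65 ± 6.77 CPM in Sham (SD, n = 5). Clec7a, the gene of the fungal glucan receptor dectin-1, averaged 8.30 ± 6.01 CPM in HLI and 2.86 ± 1.97 CPM in Sham (SD, n = 5). Clec7a thus reached the minimum of 5 CPM only through the HLI libraries. HLI replicate 3, the highest library for Ugcg, stood far above its group for both Ms4a7 and Clec7a. Of the other 9 sphingolipid enzymes, Asah1 stood highest by this measure, at place 380 of the 10586 genes, and Sptlc2 at place 419. When Spearman's rho took the place of r, 1 of the 5 genes, Ms4a7, was again among the first 5.

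A further 64 genes of sphingolipid metabolism, in 7 lists, were set beside these enzymes, and 55 of them passed the filter on low counts. The lists were drawn up by function and not by how their genes moved, though with earlier results of these data known. Of the 55, 0 passed the edgeR test in either direction (adjusted p between 0.290 and 0.999), against 0% of all genes. DESeq2 also called 0 of the 55, against 0.313% of the genes to which it gave an adjusted p. At an unadjusted p under 0.05 in edgeR there were 11 of the 55. Of these, 10 were higher in HLI (background 10.7% of all genes) and 1 lower (background 6.15% of all genes). Over both directions together, the share of 20.0% stood near the background of 16.9%. By direction the 11 were less even, with 10 higher and 1 lower, against 1438 higher and 824 lower among all 13404 genes. Log2 fold changes above 0 were found in 36 of the 55, or 65.5%, against 53.8% of all genes, and their median was 0.12, against 0.03 over all genes. In 0 of the 55 did the groups separate completely, against 0.776% of all genes with HLI higher and 0.873% with HLI lower.

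**Figure D5:**
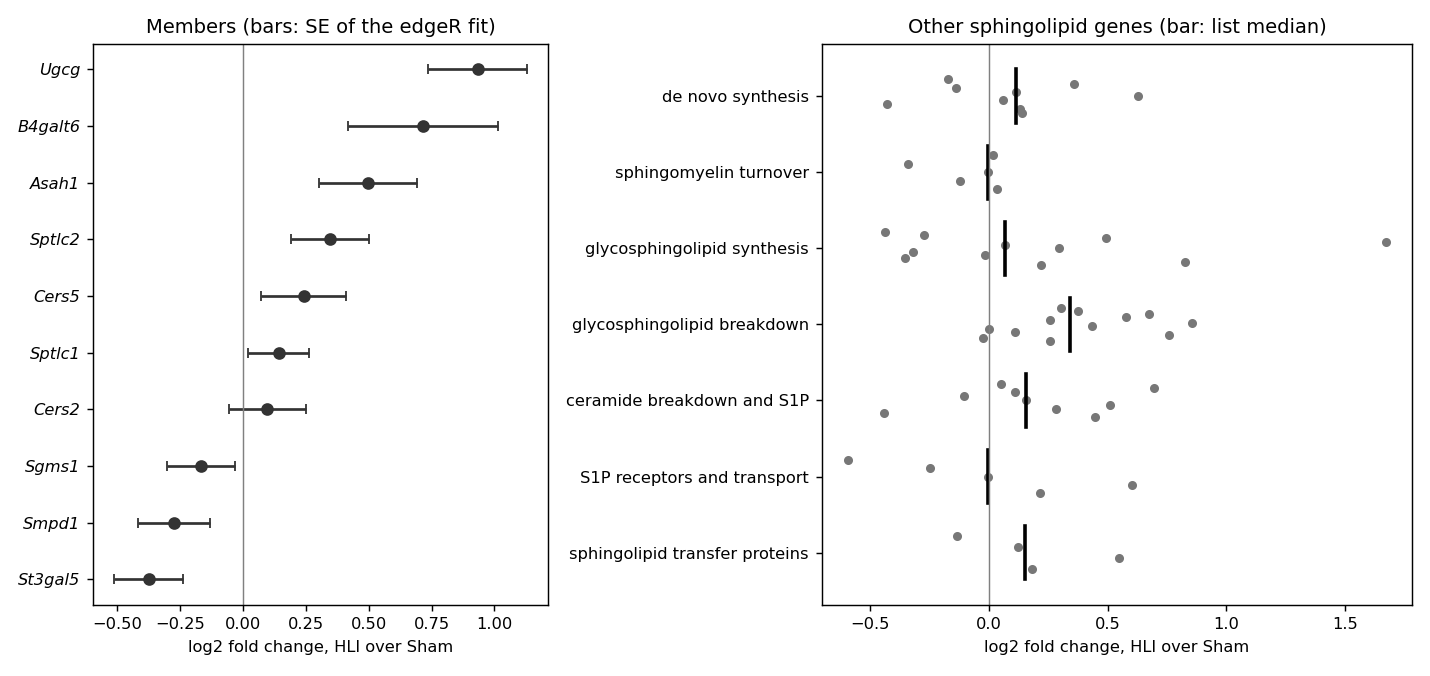
Log2 fold change of HLI over Sham for the 10 enzymes with the SE of the edgeR fit (left) and for 55 other sphingolipid genes by list with the list median as a bar (right). Ugcg lies at 0.93 and St3gal5 at -0.38. The median of glycosphingolipid breakdown is 0.34, or 0.22 without HLI replicate 1 and Sham replicate 1, and 0.22 to 0.43 when single libraries are left out.

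The breakdown of glycosphingolipids had a median log2 fold change of 0.34. Of its 12 genes, 10 had values above 0, all but Gba2 (-0.03) and Neu3 (-0.0005). Without HLI replicate 1, alone or together with Sham replicate 1, the median was 0.22. Glb1, which encodes the β-galactosidase that degrades GM1, averaged 23.0 ± 7.75 CPM in HLI and 13.6 ± 2.80 CPM in Sham (SD, n = 5), with a log2 fold change of 0.76 (SE 0.23). HLI replicates 1 and 3 were the 2 highest libraries for Glb1, as they were for Asah1 and for the macrophage sum, and HLI replicate 4 lay inside the Sham range. The part of macrophage transcripts in these values was not tested.

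Glycosphingolipid synthesis beyond the chosen enzymes had a median of 0.07 over 11 tested genes, with 6 above 0 and 5 below. This median depended on a few of the libraries, the extremes being -0.02 when Sham replicate 4 was omitted and 0.21 when Sham replicate 3 was. It was 0.16 when HLI replicate 2 or HLI replicate 4 was omitted. For every other single omission it lay between 0.02 and 0.08. B3gnt5, which starts the lacto-series, stood at 1.10, 1.33, 4.67, 1.11 and 1.20 CPM in HLI replicates 1 to 5, against 0.59, 0.34, 1.23, 0.57 and 0.20 CPM in Sham replicates 1 to 5, a low level at which HLI replicate 3 stood far above the other libraries. B3galnt1, which makes globoside, averaged 14.0 ± 2.81 CPM in HLI and 9.97 ± 2.35 CPM in Sham (SD, n = 5), with a log2 fold change of 0.50 (SE 0.19). B4galt5, which shares the lactosylceramide step with B4galt6, showed a difference of 0.22 on the log2 scale (SE 0.13). The ratio of B4galt6 to B4galt5 in TPM was 0.266 to 0.745 in HLI and 0.136 to 0.596 in Sham, so B4galt5 was the higher of the pair in all 10 libraries.

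De novo synthesis had a median of 0.12 over 9 tested genes, with 6 above 0. The median was 0.06 without HLI replicate 3, 0.07 without Sham replicate 2 and 0.16 without HLI replicate 4. Cers1, the ceramide synthase known in muscle for stearoyl chains, averaged 18.1 ± 6.06 CPM in HLI and 24.3 ± 4.88 CPM in Sham (SD, n = 5), with a log2 fold change of -0.43 (SE 0.22), and Cers6 averaged 15.7 ± 6.10 CPM in HLI and 10.1 ± 3.72 CPM in Sham (SD, n = 5), with a log2 fold change of 0.63 (SE 0.33). Both overlapped between groups. Per length, Cers2 had the highest mean of the synthases and Cers5 the next in both groups, followed by Cers1 with 12.6 ± 2.75 TPM in HLI and 15.1 ± 2.69 TPM in Sham (SD, n = 5). The ranges of Cers5 and Cers1 overlapped in both groups. Cers1 was the higher of the pair in HLI replicate 4 (16.8 against 12.9 TPM), Sham replicate 2 (18.6 against 15.8 TPM) and Sham replicate 5 (17.3 against 14.3 TPM). Cers6 averaged 4.54 TPM in HLI and 2.52 TPM in Sham, Cers4 averaged 3.81 TPM in HLI and 3.20 TPM in Sham, and Cers3 had at most 8 counts in any library. The ratio of Cers1 to Cers2 in TPM was 0.163 to 0.559 in HLI, with HLI replicate 4 highest, and 0.269 to 0.494 in Sham. Of the further subunits of serine palmitoyltransferase, Sptssa had a log2 fold change of 0.14 (SE 0.12), while Sptlc3 and Sptssb had at most 2 counts in any library. The inhibitor genes Ormdl1, Ormdl2 and Ormdl3 had log2 fold changes of -0.14, 0.36 and -0.17.

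In sphingomyelin turnover, 5 of 5 genes were tested and their median was -0.0034. Smpd3, a neutral sphingomyelinase gene, averaged 8.31 ± 4.53 CPM in HLI and 10.5 ± 2.24 CPM in Sham (SD, n = 5), and Samd8, a gene of ceramide phosphoethanolamine synthesis, averaged 53.7 ± 14.6 CPM in HLI and 58.4 ± 8.26 CPM in Sham (SD, n = 5).

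Ceramide breakdown and sphingosine 1-phosphate (S1P) metabolism had a median of 0.16 over 9 tested genes, with 7 above 0. Omitting HLI replicate 3 gave a median of 0.10, and omitting Sham replicates 1, 3, 4 or 5 in turn gave 0.29, 0.34, 0.10 and 0.05. With both replicates numbered 1 omitted it was 0.29. Sgpl1, the S1P lyase gene that ends the pathway, averaged 72.1 ± 30.8 CPM in HLI and 44.5 ± 7.98 CPM in Sham (SD, n = 5), with a log2 fold change of 0.70 (SE 0.26). Cerk, the ceramide kinase gene, averaged 36.9 ± 12.1 CPM in HLI and 25.9 ± 5.91 CPM in Sham (SD, n = 5), with a log2 fold change of 0.51 (SE 0.22). HLI replicate 1 was the highest library for both.

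For S1P receptors and transport, 5 of 7 genes were tested and their median was -0.0020, with -0.08 to 0.05 when single libraries were left out. Spns2, the S1P exporter of endothelial cells, averaged 37.6 ± 9.14 CPM in HLI and 56.7 ± 9.78 CPM in Sham (SD, n = 5), with a log2 fold change of -0.59 (SE 0.18). HLI replicate 1, at 47.3 CPM, was the only HLI library inside the Sham range of 43.8 to 66.8 CPM. The 10 endothelial markers summed to between 1160 and 1815 CPM in HLI and between 1117 and 1838 CPM in Sham, nearly the same range. The part of endothelial cell content in the Spns2 difference was not tested. S1pr2, an S1P receptor gene, averaged 19.0 ± 7.45 CPM in HLI and 12.5 ± 2.85 CPM in Sham (SD, n = 5), with a log2 fold change of 0.60 (SE 0.27).

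The 4 lipid transfer protein genes had a median of 0.15, with 0.28 without HLI replicate 1 and Sham replicate 1 and, for single libraries, 0.25 when HLI replicate 1 was omitted, 0.09 when HLI replicate 4 was, and 0.10 when Sham replicate 5 was. Gltp, which encodes a carrier of glycolipids such as glucosylceramide, averaged 38.7 ± 11.3 CPM in HLI and 26.5 ± 2.93 CPM in Sham (SD, n = 5), with a log2 fold change of 0.55 (SE 0.19). Its HLI libraries lay above all Sham libraries except HLI replicate 4, which lay below them at 22.6 CPM. Cert1, which encodes the carrier that brings ceramide to sphingomyelin synthase, averaged 65.0 ± 12.3 CPM in HLI and 57.2 ± 8.85 CPM in Sham (SD, n = 5), with a log2 fold change of 0.18 (SE 0.15). In TMM-scaled CPM, Ugcg was thus the only gene among these 65 tested sphingolipid genes in which all HLI libraries lay above all Sham libraries, and in TPM its groups overlapped. In CPM, 0.776% of all genes tested had the same separation, and Ugcg was picked with this comparison known.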

How the data were processed

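The authors deposited 1 table with an estimated count and a TPM value for each gene and sample, per the file headers. Of the deposited counts, which carry no scaling between libraries, 93.4% were exact whole numbers, and so were all those of the 10 enzymes. The deposited TPM values sum to 1000000 per sample. HISAT2 2.0, Bowtie 0.12.2 and the build mm8 appear in the submitters' processing notes, without their roles. No source used here gives the counter, annotation or strand setting, so overlapping genes cannot be told apart, and the labels' texts disagree on RNA extraction.

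Counts were rounded and tested for HLI against Sham with edgeR 4.0.16 in R 4.3.3 (quasi-likelihood test, TMM, filterByExpr with minimum count 10 and minimum total 15, Benjamini-Hochberg adjustment over 13404 genes). Standard errors are those of this fit. DESeq2 1.42.0 and limma 3.58.1 (limma-trend on log2(TPM + 1) and log2(TPM + 0.1)) served as alternatives, beside other scaling, no filter, a replicate block and leaving out libraries. Log2 CPM used a prior count of 2. The edgeR, DESeq2 and limma fits were tested on simulated counts. The simulation gave every gene the same dispersion, unlike these data, and does not show how well differences of the size described here would be found. The enzymes, lists and alternatives were chosen with earlier results of these data known. The text names, for each list, the 2 genes of lowest unadjusted p among those averaging 1 CPM or more, and the 5 genes most like Ugcg at a mean of at least 5 CPM, a rule set with the lists. B4galt5, Sptssa, Sptlc3, Sptssb, Ormdl1, Ormdl2, Ormdl3 and the other ceramide synthases were added after their values were seen. One gene that this rule names is not reported here.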

Additional observations from a re-analysis of the deposited data

Results flagged for a closer look

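Among 90 groups of 5 libraries checked for a library far from the rest, 9 held one. The rate of about 1 in 20 expected by chance holds for independent, normally distributed groups. These groups hold CPM values of the same libraries, so nothing is read from the 9 beside that rate. The 9 did not include values of the 10 enzymes. The summed developmental myosin genes reached 1308 CPM in HLI replicate 3, and 271 CPM in Sham replicate 1, each far above the rest of its group. Neutrophil markers summed to 61.1 CPM in HLI replicate 1 and to 67.9 CPM in Sham replicate 3. HLI replicate 3 was far above its group for B3gnt5 at 4.67 CPM, Ms4a7 at 81.5 CPM and Clec7a at 18.7 CPM. Ms4a7 and Clec7a had been named because they followed Ugcg, itself highest in HLI replicate 3. Samd8 stood at 79.3 CPM in HLI replicate 4 and B3galnt1 at 14.1 CPM in Sham replicate 1, both above the rest of their group.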

How the results depend on the processing

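Leaving out single libraries gave 0 called genes over the whole table each time, with 1160 to 4181 genes at an unadjusted p under 0.05, and 0 called genes among the 55 other sphingolipid genes, with 6 to 22 at an unadjusted p under 0.05. DESeq2 called 45 genes of the whole table, and 54 were called without HLI replicate 1 and Sham replicate 1, Ugcg not among these (edgeR adjusted p = 0.059). The replicate block gave 0 called genes. Same-numbered libraries did not deviate together in every pair, with correlations of -0.01 to 0.28, so the numbers were not taken as pairs. Of the 10 enzymes, 7 had values above 0 in all fits except those without HLI replicate 1, where 6 had. The log2 fold change of Ugcg ran from 0.77 without HLI replicate 3 to 1.07 without Sham replicate 1 when single libraries were left out. On log2(TPM + 1) it was 1.03, beside an overall gene median of 0.19. The mean ratio of HLI to Sham for Sptlc1 was 1.27 in TPM and 1.10 in CPM. The spread on log2(TPM + 1) was 0.11 for St3gal5 and 0.13 for Smpd1. On log2(TPM + 1), the median over the 55 other genes was 0.30, and that of S1P receptors and transport was 0.19, above 0 as the median of all genes was. Of the 5 genes nearest to Ugcg, 2 were again among the nearest 5 when genes averaging 1 CPM or more were admitted. The order of the list medians also changed: on log2(TPM + 0.1) it was 0.51 for glycosphingolipid breakdown and 0.53 for ceramide breakdown and S1P. At 5 libraries a group, differences of the size seen in Sptlc1 or Cers2 cannot be told from 0.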
